A study of Mus musculus with 3 samples.

Results

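The cytosolic ribosomal protein genes were taken as the protein-coding genes of the GENCODE annotation of GRCm38 whose symbol is Rpl or Rps followed by a digit, together with Rplp0, Rplp1, Rplp2 and Rpsa. Kinases of the Rps6k family and genes with the ending -ps in the symbol were left out. This gave 86 of 21938 protein-coding genes outside the mitochondrial genome. Of these, 77 encode core proteins of the ribosome. The other 9 are the paralogs Rpl3l, Rpl7l1, Rpl10l, Rpl22l1, Rpl36al, Rpl39l, Rps27l and Rps27rt, and Rps19bp1, which encodes a binding partner of the small-subunit protein RPS19 rather than a ribosomal protein. A TRα1 binding site (TRBS) was linked to a gene when its summit, the base with the highest read coverage, lay in the gene body or within 10 kb of the 5′ end of the gene.

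Chromatin occupancy had been examined by ChIP-seq in the striatum of male C57BL/6J mice aged 8 weeks, which carried a GS-tagged TRα1 in GABAergic neurons. These mice were euthyroid and untreated, and no group of mice without the tag or with an altered hormone level was analysed here. The 3 libraries comprised 2 ChIP libraries and 1 input library, and the driver that restricts the tag to these neurons is not given in the sources used here. The data consisted of 1 list of 23988 TRBS with a MACS2 score of at least 60, without values for single libraries. Depth and the variation between animals are therefore unknown, no replicate error can be given, and no test was made over genes, which are not replicates. Intervals are 95% intervals (exact Poisson for coverage, Wilson for shares) and cover counting error only.

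Ribosomal proteins build the large and the small subunit of the cytosolic ribosome, together with ribosomal RNA. Their mRNAs usually start with a run of pyrimidines, the 5′ terminal oligopyrimidine motif, through which mTOR signaling controls their translation, and many of the genes host small nucleolar RNAs in their introns. TRα1 is a nuclear receptor for thyroid hormone (T3) that binds, with RXR, to pairs of AGGTCA half-sites, preferably as a direct repeat with a spacer of 4 bp, called DR4. It can occupy chromatin without the hormone, so that a TRBS is a position of the receptor and not a measure of transcription.

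Lists of genes characteristic of the targeted cells and of glial cells were set beside the share of all protein-coding genes with a linked TRBS, 44.7%. In the list of striatal projection neurons, 9 of 10 genes had a linked TRBS, with Rgs9 at 90.4-fold and Ppp1r1b at 42.4-fold enrichment, and Adora2a was the exception. The numbers were 1 of 10 for astrocytes, 2 of 10 for oligodendrocytes and 1 of 10 for microglia, where the linked genes were S100b at 7.87-fold, Cnp at 8.15-fold, Mbp at 32.7-fold and Cx3cr1 at 7.47-fold. Mbp, the myelin basic protein gene, had 11 linked TRBS, including 1 at the 5′ end. Other defining glial genes, such as Gfap, Aqp4, Mog, P2ry12 and Tmem119, had no linked TRBS.

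Of the 86 ribosomal protein genes, 45 (52.3%, interval 41.9 to 62.6%) had a linked TRBS, compared with 44.7% of all protein-coding genes, a value inside this interval. A TRBS within 1 kb of the 5′ end was found at 26 genes (30.2%, interval 21.5 to 40.6%), compared with 23.2% of all protein-coding genes, which also lies inside the interval. The remaining 41 genes had no linked TRBS. With both shares near those of all genes, this division is not read as a trait of the family. Ribosomal protein genes are short, with a median span of 3328.5 bp compared with 17425 bp over all genes, which leaves less gene body in which a summit can fall. Among genes that span at most 10 kb, 42 of 82 ribosomal protein genes were linked (51.2%, interval 40.6 to 61.7%) compared with 28.6% of all such genes.

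Ribosomal protein genes also have close neighbors. The 5′ end of another protein-coding gene lay within 10 kb of 48 of the 86 genes (55.8%), compared with 29.4% of all genes. When only TRBS were counted whose nearest 5′ end was that of the ribosomal protein gene itself, 30 genes (34.9%, interval 25.7 to 45.4%) remained, against 36.1% of all genes. The part that neighboring genes take in the count was not tested further.

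The 26 genes with a TRBS at the 5′ end encode proteins from both subunits. For the large subunit they included Rpl3, Rpl10a, Rpl11, Rpl12, Rpl13, Rpl15, Rpl22, Rpl23, Rpl23a, Rpl24, Rpl30, Rpl31, Rpl35, Rpl36 and Rpl38. For the small subunit they included Rps6, Rps9, Rps18, Rps19, Rps20, Rps27a and Rps29, and the paralog Rps27l. The 19 genes whose linked TRBS all lay farther than 1 kb from the 5′ end included Rpl3l, Rpl7l1, Rpl9, Rpl18, Rpl19, Rpl26, Rpl27, Rpl29, Rpl41, Rplp0, Rplp2, Rps2, Rps10, Rps14, Rps19bp1, Rps25, Rps28 and Rpsa.

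No linked TRBS was listed for Rpl4, Rpl5, Rpl6, Rpl7, Rpl7a, Rpl8, Rpl10, Rpl10l, Rpl13a, Rpl14, Rpl17, Rpl21, Rpl22l1, Rpl27a, Rpl28, Rpl32, Rpl34, Rpl35a, Rpl36a, Rpl36al, Rpl37, Rpl37a, Rpl39, Rpl39l or Rplp1 of the large subunit and its paralogs. In the small subunit the same held for, among others, Rps3, Rps3a1, Rps4x, Rps7, Rps12, Rps13, Rps15, Rps15a, Rps16, Rps21, Rps23, Rps24, Rps26, Rps27 and Rps27rt. The list holds only TRBS above its score threshold, so weaker occupancy at these genes cannot be told from none. The products of Rpl5 and Rpl11 join the same complex with ribosomal RNA, which binds MDM2. Rpl11 had a TRBS at its 5′ end, with a fold enrichment of 6.20, while Rpl5 had no linked TRBS.

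The subunits had similar shares. In the large subunit with its paralogs, and without the stalk genes, 25 of 49 genes (51%) were linked and 16 (32.7%) had a TRBS at the 5′ end. In the small subunit, 17 of 33 genes (51.5%) were linked and 10 (30.3%) had one at the 5′ end. Of the 3 genes for the stalk, the flexible arm of the large subunit that recruits elongation factors, Rplp0 and Rplp2 were linked and Rplp1 was not, and none had a TRBS within 1 kb of its 5′ end.

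**Figure D1:**
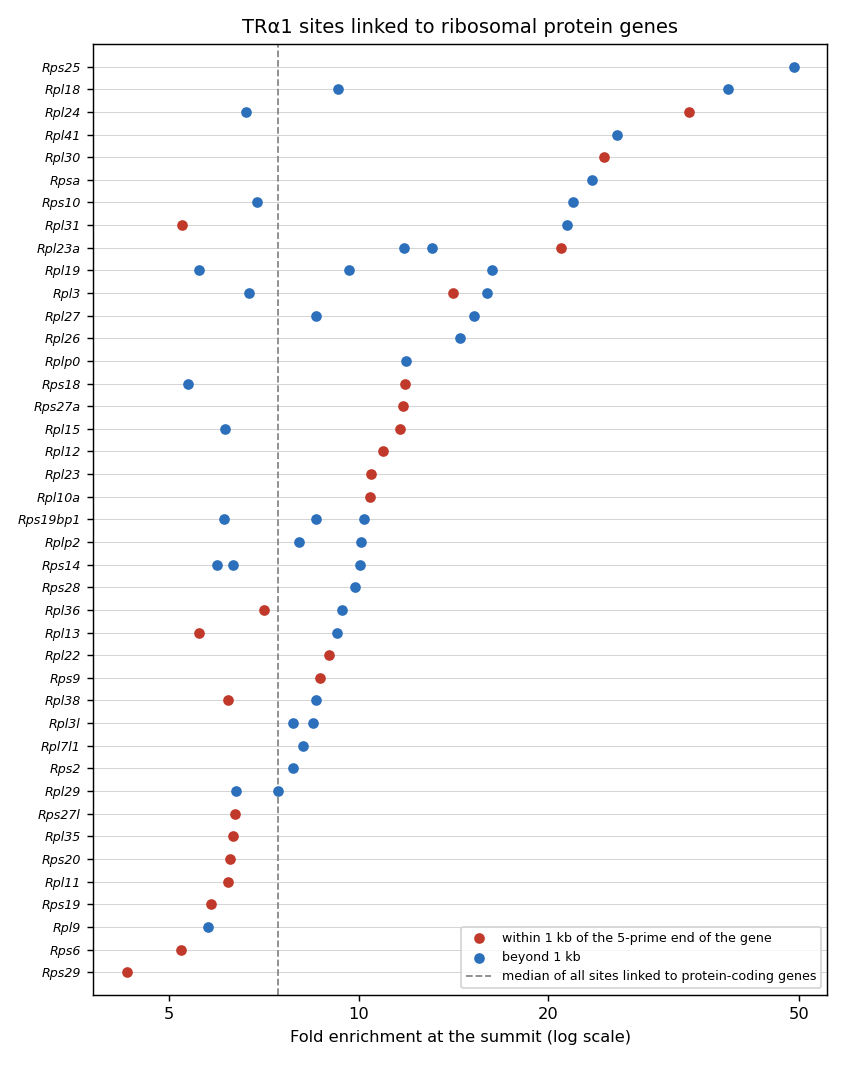
Fold enrichment at the summit (log axis) of the TRBS linked to 41 of the 45 ribosomal protein genes with a linked TRBS, ordered by the strongest one. Red points lie within 1 kb of the 5′ end of the gene and blue points beyond it, and the dashed line is the median of all TRBS linked to protein-coding genes, 7.44. The values run from 4.29 at Rps29 to 49.1 at Rps25, and each is a single value of the peak list without replicate error.

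There were 70 pairs of a gene and a TRBS, made by 69 distinct TRBS, since Rps2 and Rpl3l shared 1. The fold enrichment, which is the ratio of read coverage at the summit to the local background with 1 added to each, was 8.96 at the median and ran from 4.29 to 49.1. The median was 7.44 over the 17566 TRBS linked to any protein-coding gene. The coverage at the summit had a median of 26 fragments, compared with 22 over all linked TRBS, and the local background had a median of 2.02 compared with 1.79. Of the 69 TRBS, 10 (14.5%) lay above the 90th percentile of fold enrichment over the whole list.

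The TRBS at the 5′ ends were of ordinary strength. The 27 of them had a median fold enrichment of 8.93, compared with 7.81 over the 4894 TRBS within 1 kb of any protein-coding 5′ end, and their median coverage was 27 compared with 25. The 42 TRBS farther away had a median of 9.27, so that proximity to the gene did not go with a higher enrichment.

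Within 1 kb of the GENCODE 5′ end of a ribosomal protein gene, the strongest TRBS belonged to Rpl24, Rpl30 and Rpl23a. All 3 had the summit downstream of the 5′ end. A TRBS of Rps10 with a fold enrichment of 21.9 is not ranked here. It lay 87 bp from the RefSeq start but 1338 bp from the GENCODE 5′ end. At Rpl24, which encodes a large-subunit protein at the contact with the small subunit, the TRBS at chr16:55966084-55966669 had its summit at 22 bp, a coverage of 128 fragments (107 to 152) and a fold enrichment of 33.4. At Rpl30 the TRBS at chr15:34443098-34443772 had its summit at 131 bp, a coverage of 84 (67.0 to 104) and a fold enrichment of 24.5. Rpl24 and Rpl30 were picked by fold enrichment, which is computed from coverage, so their high coverage is no separate result. At Rpl23a, whose product lines the exit of the peptide tunnel, the TRBS at chr11:78182992-78183499 had its summit at 306 bp in an intron, with a coverage of 60 (45.8 to 77.2) and a fold enrichment of 20.96.

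The reference sequence (GRCm38.p6) of 101 bases centered on the summit is shown for these 3 genes. They carry the strongest TRBS of the family at the GENCODE 5′ end. Rpl23 is added because its window holds 3 different motifs. Each sequence runs 5′ to 3′ on the strand of the gene, which is plus for Rpl24 and minus for the other 3 genes. Capitals mark exact matches on either strand to the ETS motif CCGGAA, the GC box GGGCGG, the E-box CACGTG or the half-site AGGTCA.
Rpl24, chr16:55966247-55966347: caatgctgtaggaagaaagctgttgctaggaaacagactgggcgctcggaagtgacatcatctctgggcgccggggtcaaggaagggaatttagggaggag
Rpl30, chr15:34443459-34443559: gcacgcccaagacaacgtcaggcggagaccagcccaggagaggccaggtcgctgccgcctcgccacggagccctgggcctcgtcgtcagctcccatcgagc
Rpl23a, chr11:78183228-78183328: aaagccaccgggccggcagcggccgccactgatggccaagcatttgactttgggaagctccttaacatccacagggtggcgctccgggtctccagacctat
Rpl23, chr11:97782361-97782461: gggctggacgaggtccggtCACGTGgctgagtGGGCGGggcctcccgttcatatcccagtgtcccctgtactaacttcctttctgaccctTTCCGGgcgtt
The windows of Rpl24, Rpl30 and Rpl23a held none of these 4 motifs. The 3 strongest TRBS at GENCODE 5′ ends of the family thus had no match within these 101 bases. The window of Rpl23 held an E-box, a GC box and an ETS match.

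Other TRBS at 5′ ends had fold enrichments down to 4.29, at Rps29. At Rpl3 the value was 14.1. For this gene, whose product lies close to the peptidyl transferase center, the summit at 311 bp lay in a coding exon and was 223 bp from the start of Syngr1. At Rps27a, which encodes ubiquitin fused to a small-subunit protein, the coverage reached 68 (52.8 to 86.2), but the local background of 4.86, the highest among the 69 TRBS, left a fold enrichment of 11.8. At Rps29 the coverage was 21 (13.0 to 32.1) over a background of 4.13. At Rps6, which encodes the phosphorylated target of S6 kinases, the fold enrichment was 5.22, with a coverage of 22 (13.8 to 33.3) and a background of 3.40. Rps27a and Rpl41 thus had the same coverage but fold enrichments of 11.8 and 25.7, because the local background differed.

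Of the 27 TRBS at 5′ ends, 18 had the summit downstream and 9 upstream, and the median distance was 230 bp, with 15 within 250 bp. The share of genes with a summit in the first 500 bp downstream was 17.4% for ribosomal protein genes and 10.7% for all genes, and it was 8.14 and 8.77% for the 500 bp upstream. The summit lay in an untranslated exon in 11 of the 27 TRBS, in a coding exon in 4, in an intron in 4, and outside protein-coding genes in 8. In 22 of them the ribosomal protein gene had the nearest 5′ end. The other 5 were those of Rpl3, Rpl12, Rpl15, Rpl35 and Rps18, where Syngr1, Lrsam1, Nkiras1, Arpc5l and Vps52 started closer to the summit. The distances, 25 to 508 bp to the neighbor, leave occupancy of the 2 promoters unresolved at these 5 genes. At Rps27a the summit, 182 bp upstream, lay in an intron of Clhc1, whose start is 159 bp from that of Rps27a. The 2 promoters are not resolved there either.

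**Figure D2:**
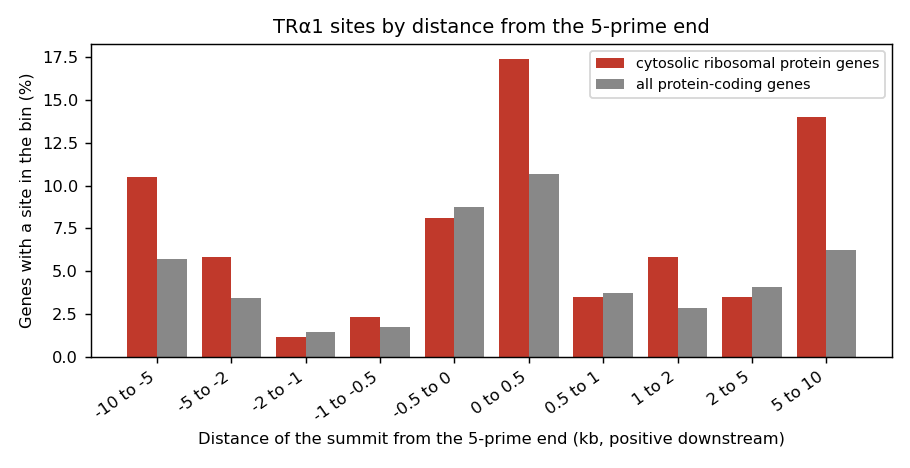
Share of genes (%) with a TRBS summit in each interval of distance from the 5′ end (kb, positive downstream), for the 86 ribosomal protein genes (red) and all 21938 protein-coding genes (gray). The share was 17.4% compared with 10.7% in the first bin downstream, and 14% compared with 6.27% from 5 to 10 kb downstream.

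TRBS at the 5′ end occurred with and without a second gene start nearby. Another protein-coding gene started within 1 kb of 16 ribosomal protein genes, of which 6 (37.5%) had a TRBS at the 5′ end, compared with 38.9% of the 2764 such genes in the genome. Without such a neighbor it was 20 of 70 (28.6%), compared with 21% of all genes. The 30 ribosomal protein genes that host small nucleolar RNAs in GENCODE, 58 RNAs in all, had a TRBS at the 5′ end in 9 cases (30%), and the other 56 genes in 17 cases (30.4%).

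Among the 42 TRBS beyond 1 kb, 13 were nearest to a ribosomal protein gene and 29 to another gene, of which 14 lay within 1 kb of the start of that gene. This includes the strongest of all. The TRBS linked to Rps25, which encodes a small-subunit protein used in initiation from internal ribosome entry sites, lay at chr9:44396874-44397792, with a coverage of 131 (110 to 155) and a fold enrichment of 49.1. Its summit was 9868 bp upstream of Rps25 but only 419 bp from the start of Slc37a4, the glucose 6-phosphate translocase, in an untranslated exon of that gene. With the RefSeq start of Rps25 the distance was 10443 bp, outside the limit.

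The second, at Rpl18, lay at chr7:45707165-45708400 within Dbp, which encodes a circadian transcription factor. It had the highest coverage, 216 fragments (188 to 247), and a fold enrichment of 38.6 over a background of 4.62, with the summit 7604 bp upstream of Rpl18 and 2765 bp from the start of Dbp. A second TRBS of Rpl18 in Dbp, 9288 bp upstream, had a fold enrichment of 9.28. Both lay more than 10 kb from the RefSeq start of Rpl18, at 10218 and 11902 bp.

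Some distal TRBS had no closer gene. The TRBS of Rpsa, which encodes a small-subunit protein also known as the laminin receptor, lay at chr9:120134686-120135112, 7227 bp downstream of the 5′ end and beyond the end of the gene. Its coverage was 62 (47.5 to 79.5) and its fold enrichment 23.4, and Rpsa had the nearest 5′ end. At Rpl31 a TRBS 2393 bp upstream, at chr1:39365201-39365679, reached a fold enrichment of 21.4 with a coverage of 62, while the TRBS 90 bp from the 5′ end reached 5.25 with a coverage of 19 (11.4 to 29.7). The 2 coverage intervals at Rpl31 do not overlap, so that the distal TRBS was the stronger one. At Rpl26 the single TRBS was found 2210 bp upstream and its fold enrichment was 14.5.

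At Rps10 the distance depended on the gene model. The TRBS at chr17:27634960-27635683, with a coverage of 74 (58.1 to 92.9) and a fold enrichment of 21.9, lay 1338 bp inside the GENCODE gene and 109 bp from the start of RPS10-NUDT3. The RefSeq start of Rps10 differs by 1425 bp from the GENCODE 5′ end, and the summit was 87 bp upstream of it. A second TRBS, 2396 bp upstream of the GENCODE 5′ end, had a fold enrichment of 6.89.

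The TRBS of other genes linked only at a distance were mostly at neighbors. That of Rpl41, which encodes a very short peptide of the large subunit, lay 6043 bp downstream in an untranslated exon of Zc3h10, with a coverage of 68 and a fold enrichment of 25.7. The 2 TRBS of Rplp2 lay upstream at 6444 and 9666 bp, with fold enrichments of 10.1 and 8.04, and the nearest start for both was that of Slc25a22. That of Rplp0 lay 5683 bp downstream, 104 bp from the start of Gcn1l1, with a fold enrichment of 11.9. The TRBS shared by Rps2 and Rpl3l, at a fold enrichment of 7.87, lay 91 bp from the start of Ndufb10, and the second TRBS of Rpl3l, at 8.47, lay 158 bp from that of Msrb1. That of Rpl7l1 was 9809 bp downstream, with a fold enrichment of 8.16, and lay 228 bp from the start of 2310039H08Rik. The nearest start to these 7 TRBS belonged in each case to a gene outside the family.

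Among the other genes linked only beyond 1 kb, Rpl9 had a TRBS in its own untranslated exon at 2010 bp, with 5.77. Rps28 had the nearest start to a TRBS 6378 bp away in a coding exon of Kank3, with 9.85, and Rpl27 to both of its TRBS in exons of Rundc1, 8085 and 6967 bp upstream, with 15.2 and 8.55. For Rpl29 the 2 TRBS at 5461 and 8873 bp downstream, with 7.44 and 6.38, had Acy1 as the nearest gene.

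**Figure D3:**
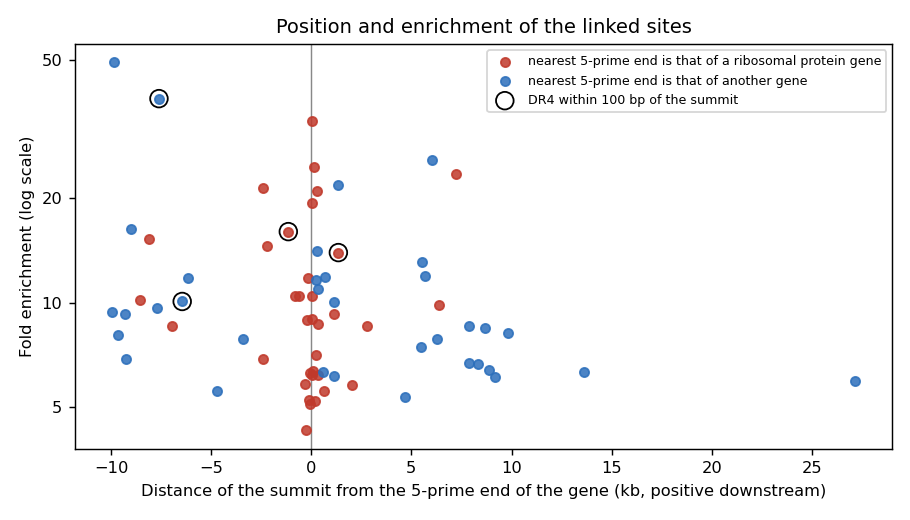
Fold enrichment (log axis) against the distance of the summit from the 5′ end of the ribosomal protein gene (kb, positive downstream) for the 70 pairs of gene and TRBS. Red points have a ribosomal protein gene as the nearest 5′ end and blue points another gene. The 4 circled TRBS hold a DR4 within 100 bp of the summit, and none of these lies within 1 kb of the 5′ end.

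Of the 86 genes, 25 had 1 linked TRBS, 15 had 2 and 5 had 3, so that 20 (23.3%) had at least 2, compared with 20.1% of all genes. The 5 genes with 3 were Rpl3, Rpl19, Rpl23a, Rps14 and Rps19bp1. All 3 TRBS of Rpl19 lay in introns of the calcium channel gene Cacnb1, 8979, 7697 and 4702 bp upstream, with fold enrichments of 16.3, 9.67 and 5.58. Besides the TRBS in its own intron, Rpl23a had TRBS with 13.1 in Tlcd1 and 11.8 in Rab34. Rpl3 had a TRBS with 15.99 at 1145 bp upstream and 1 with 6.69 at 7876 bp downstream, in addition to that at its 5′ end. Thus Rpl3 and Rpl23a combined a TRBS within 1 kb of the 5′ end with distal ones, while Rpl19 had distal ones only.

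Rps14, whose loss is known from the 5q- syndrome, has the longest annotated span of the family, 31449 bp, and its TRBS lay at 1120, 13595 and 27165 bp in introns, with fold enrichments of 10.04, 6.32 and 5.96. The nearest start for all of them was that of Ndst1. For Rps19bp1 the TRBS lay 8548 bp upstream with 10.2, and 7877 and 9167 bp downstream with 8.55 and 6.11, and the downstream ones were nearest to Atf4, the transcription factor of the integrated stress response. Without its gene body, Rps14 would keep 1 TRBS, since the other 2 lay beyond 10 kb.

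Of the 15 genes with 2 TRBS, 8 had 1 at the 5′ end and 1 farther away. Rpl15 had fold enrichments of 11.6 at 230 bp and 6.13 at 1127 bp, Rpl13 of 5.58 at 617 bp and 9.25 at 1144 bp, and Rpl38 of 6.20 at 324 bp and 8.55 at 2785 bp, all downstream. Rpl38, known for its role in the translation of Hox mRNAs, had both in its introns. Rps18 had 11.8 at 697 bp and 5.36 at 4665 bp, the latter 152 bp from the start of B3galt4. Rpl36 had 7.08 at 241 bp downstream and 9.41 at 9936 bp upstream. Rpl24 had a second TRBS with 6.64 at 8313 bp downstream, in Zbtb11.

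The limit of 10 kb was close to several TRBS. Just inside it lay those of Rpl36 at 9936 bp and Rps25 at 9868 bp, with 9.41 and 49.1. Just outside lay TRBS of Rps2 at 10577 bp with a fold enrichment of 18.2, Rpl18 at 10587 bp with 11.4 and Rpl29 at 10858 bp with 7.07.

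DR4 elements were rare at the summits of these TRBS. Allowing up to 2 mismatches among the 12 bases of the half-sites, on either strand and within 100 bp of the summit, 4 of the 69 TRBS (5.80%, interval 2.28 to 13.98%) held a DR4, compared with 12.8% of all TRBS linked to protein-coding genes. It was 0 of the 27 TRBS at 5′ ends, where a count of 0 allows up to 11.1% (taken as 3 of 27), and 6.35% of all TRBS at 5′ ends held one. Among the TRBS beyond 1 kb it was 4 of 42 (9.52%). Both background shares are within what the small numbers allow.

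3 of the 4 DR4 elements at a summit are shown with their neighboring bases because they are matches to the known response element of the receptor. They are from GRCm38.p6, with half-sites in capitals and each read on its own strand, and the coordinates are those of the 16 bases from the first to the last half-site base.
Rpl18, chr7:45707848-45707863, minus strand: agcccGGGTCAgccgAGGACAccagt
Rpl3, chr15:80093026-80093041, plus strand: catcaGGGTCAaaggAGGACAtgccc
Rplp2, chr7:141441007-141441022, plus strand: tctctAGGTCAttccAGGTGTtgtta
Each of the 3 differed from the perfect repeat at 2 bases. The element of Rpl18 lay 2 bp from the summit, that of Rpl3 20 bp and that of Rplp2 88 bp. The element of Rpl18 lies in an untranslated exon of Dbp, that of Rpl3 in an intron of Syngr1, and that of Rplp2 in an intron of Pidd1. All 3 thus lay in genes outside the family, which does not cover the element not shown. The nearest 5′ end to the TRBS of Rpl3 was still that of Rpl3, at 1145 bp.

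The bases around the summit at 5′ ends were described with 6 short motifs searched without mismatch on both strands. A match to the ETS motif CCGGAA was found at 10 of 27 TRBS (37%, interval 21.5 to 55.8%), compared with 16.6% of all TRBS at 5′ ends. These included Rpl11, Rpl13, Rpl15, Rpl23, Rpl30, Rps20 and Rps27l. The GC box GGGCGG was found at 40.7% compared with 52.8%, the E-box CACGTG at 14.8% compared with 6.56%, and the half-site AGGTCA at 18.5% compared with 12.6%. The YY1 motif AAGATGGC and TATAAA were found at none of the 27. These matches describe letters within 100 bp of the summit and not the binding of a factor.

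The promoters themselves were searched for the same letters in genes with and without a TRBS at the 5′ end. RefSeq promoters (GRCm38.p6, 250 bases before to 50 after the start) were found for 66 of the 86 genes, 16 with a TRBS at the GENCODE 5′ end and 50 without, and for 16538 of all protein-coding genes. The RefSeq start lay within 100 bp of the GENCODE 5′ end for 51 of the 66. The ETS motif was found in 8 of 16 promoters with a TRBS (50%) and in 25 of 50 without (50%), compared with 19.7% of all promoters. The GC box was found in 62.5 and 60%, compared with 48.2%. The shares were similar in ribosomal protein promoters with and without a TRBS at the GENCODE 5′ end, but a difference could be missed. For the 16 promoters the intervals are wide, 28.0 to 72.0% for the ETS motif and 38.6 to 81.5% for the GC box. Over all genes the shares with and without a TRBS were 29.3 and 16.7% for the ETS motif. For the GC box they were 71.6 and 40.8%. By the RefSeq start, 17 of the 66 genes had a summit within 1 kb. Rps10, counted here as without, had a summit 87 bp from its RefSeq start, and its promoter holds both motifs.

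A run of at least 8 pyrimidines within 10 bases of the start, the form of the terminal oligopyrimidine motif, was found in 9 of 16 promoters with a TRBS (56.2%, interval 33.2 to 76.9%) and in 18 of 50 without (36%, interval 24.1 to 49.9%), and the intervals overlap. Such a run was found in 13.6% of all promoters. The promoter of Rps10, counted among the 50 without, also holds one. The YY1 motif was found in 0 of 16 and in 5 of 50 (10%), TATAAA in 0 of 16 and in 6 of 50 (12%), the E-box in 6.25 and 8%, and the half-site in 6.25 and 10%. The median GC content was 56.8% with and 58.2% without a TRBS, whereas over all genes it was 63.7% with and 54.3% without.

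The promoters of Rpl31, with a TRBS at the 5′ end, and of Rpl27a, with no linked TRBS, are shown because they hold the same motifs. Both are on the plus strand, and capitals mark the pyrimidine run at the start and matches to the ETS motif and GC box on either strand.
Rpl31, chr1:39367601-39367900: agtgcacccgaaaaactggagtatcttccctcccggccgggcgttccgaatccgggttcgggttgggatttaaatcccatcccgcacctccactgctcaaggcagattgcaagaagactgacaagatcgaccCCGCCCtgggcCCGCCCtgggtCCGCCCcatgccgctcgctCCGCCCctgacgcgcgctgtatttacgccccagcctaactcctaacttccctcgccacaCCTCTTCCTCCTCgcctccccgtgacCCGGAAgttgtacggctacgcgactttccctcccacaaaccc
Rpl27a, chr7:109518945-109519244: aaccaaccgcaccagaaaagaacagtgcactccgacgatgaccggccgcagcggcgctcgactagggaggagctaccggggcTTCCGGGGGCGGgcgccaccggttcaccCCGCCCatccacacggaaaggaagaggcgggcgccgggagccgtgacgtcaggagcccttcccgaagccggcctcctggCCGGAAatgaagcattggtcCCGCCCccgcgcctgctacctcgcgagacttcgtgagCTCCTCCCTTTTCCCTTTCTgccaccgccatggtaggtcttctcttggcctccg
The pyrimidine run is 13 bases long in Rpl31 and 20 bases long in Rpl27a. The pair was chosen for holding the same motifs, Rpl27a after its values were seen, and a TRBS was listed at the promoter of Rpl31 alone. That TRBS was among the weaker ones, with a fold enrichment of 5.25, at percentile 5.38 of the whole list. Weaker occupancy at Rpl27a cannot be told from none.

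**Figure D4:**
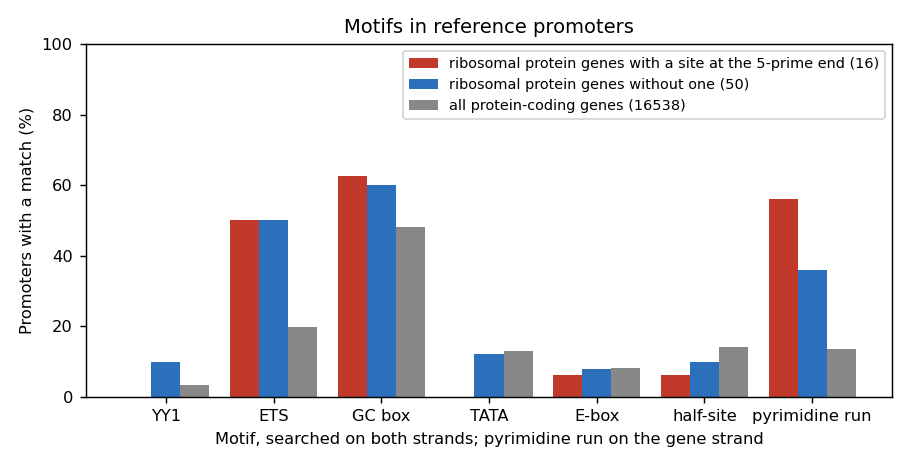
Share of RefSeq promoters (%) with at least 1 match to each motif. Bars show 16 ribosomal protein genes with a TRBS at the GENCODE 5′ end (red), 50 without (blue) and 16538 protein-coding genes (gray). The red and blue bars are both at 50% for the ETS motif, and at 56.2 and 36% for the pyrimidine run.

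Other genes of the translation machinery were examined for reference, by the same rule, beside 44.7% of all protein-coding genes linked and 23.2% with a TRBS at the 5′ end. Mitochondrial ribosomal protein genes were linked in 48 of 78 cases (61.5%, interval 50.4 to 71.6%) and had a TRBS at the 5′ end in 36 (46.2%). Genes listed with the elongation factors, a list that also holds Tpt1 and Eef1e1, were linked in 8 of 9 cases. Initiation factors were linked in 18 of 29 (62.1%), genes of the RNA polymerase I machinery in 9 of 10 and genes of growth control in 7 of 11. Genes of ribosome assembly were linked in 8 of 23 cases (34.8%, interval 18.8 to 55.1%). The interval of the cytosolic ribosomal protein genes, 41.9 to 62.6%, overlaps those of the mitochondrial ones and of the assembly genes, and the lists differ in gene length.

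The strongest TRBS among these genes exceeded all those of the ribosomal protein genes. Eef2, the elongation factor of translocation, had a TRBS 1468 bp upstream with a coverage of 312 and a fold enrichment of 79.9, and Tpt1 had one 89 bp downstream with a coverage of 263 and a fold enrichment of 76.9. Rrn3, an initiation factor of RNA polymerase I, followed with 41.7 at 90 bp upstream, with a DR4 at the summit. Of the mitochondrial genes, Mrps33 reached 38.9, Mrps30 36.0, Mrps18b 33.6 and Mrpl55 32.3, and Mrps11 and Mrpl46 shared a TRBS with 32.1. The TRBS of Mrpl55 lay 5758 bp from its 5′ end but 77 bp from the start of 2310033P09Rik. That of Mrps18b lay 116 bp from its 5′ end and 71 bp from the start of Ppp1r10. Taf1d reached 32.0. The median of the strongest TRBS per linked gene was 10.4 for the cytosolic and 8.73 for the mitochondrial ribosomal protein genes, compared with 9.30 over all genes.

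2 genes of the cytosolic ribosome that the naming rule leaves out also had TRBS. Fau, which encodes a small-subunit protein fused to a ubiquitin-like protein, had a TRBS with a fold enrichment of 6.13, and Rack1, a small-subunit scaffold, had one with 10.9, both at the 5′ end.

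**Figure D5:**
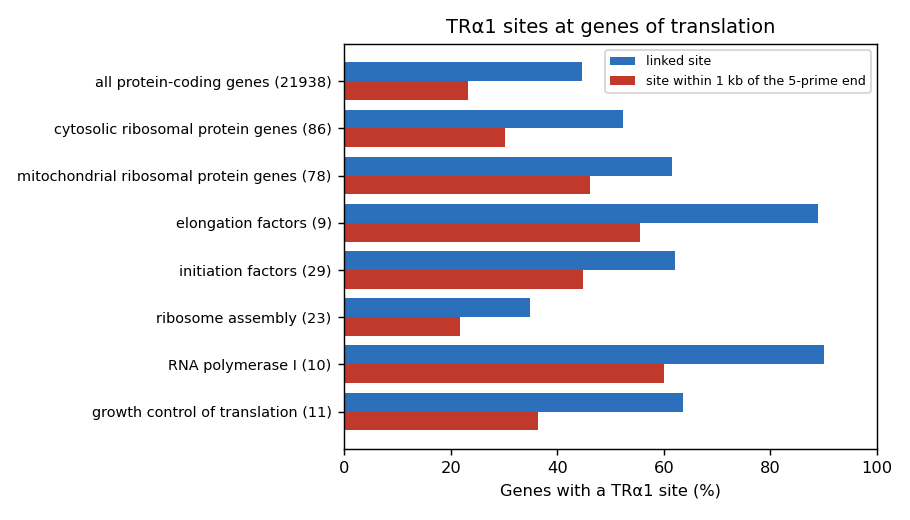
Share of genes (%) with a linked TRBS (blue) and with a TRBS within 1 kb of the 5′ end (red) in lists of translation genes, with the number of genes in parentheses. Cytosolic ribosomal protein genes are at 52.3 and 30.2%, between ribosome assembly genes at 34.8 and 21.7% and mitochondrial ribosomal protein genes at 61.5 and 46.2%.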

How the data were processed

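TRα1 ChIP-seq of mouse striatum (2 ChIP libraries, 1 input library) was deposited as 1 peak list. The authors had aligned reads to GRCm38 (mm10) with Bowtie2 (2.3.2.2 in the submitters' processing notes), called peaks with MACS2 (2.1.1.20160309.0) and removed peaks with a score below 60. Pooling of libraries and treatment of duplicates are not given in the sources used here. The deposited pileup is a coverage signal at the summit, and the deposited fold enrichment is its ratio to the local background of MACS2, with 1 added to each. The score of the authors, and the −log10 q value it is made from, served only as thresholds. The local background was recomputed from pileup and fold enrichment.

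Summits were linked to GENCODE vM21 genes without the mitochondrial genome. Start sites were the 5′ ends of genes. Intronic, exonic and untranslated positions followed the annotation. DR4 was searched within 100 bp of summits as 2 AGGTCA half-sites with a spacer of 4 bp and at most 2 mismatches. Promoter sequences were those of RefSeq, and other sequences were read from GRCm38.p6. The gene lists were written from general knowledge. The members and lists were chosen with earlier results of these data known. Genes were named in full when they had one of the 10 highest fold enrichments, at least 2 TRBS, a DR4 at the summit or TRBS only beyond 1 kb, as were the stalk genes, Rpsa and the 10 strongest other translation genes. The Rpl23 and Rpl27a sequences and the genes with a single TRBS at the 5′ end that are given with values were chosen after their values were seen. The search for pyrimidine runs was likewise added later. Some genes counted here are not reported by name or value. Alternatives were other distances, scores, peak positions, gene sets and mismatch limits. All steps were run in Python 3.11.15 (scipy 1.17.1, pandas 2.3.3, numpy 2.4.6). The linking of summits, the nearest start and the DR4 search were tested on simulated data, and the other steps were not.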

Additional observations from a re-analysis of the deposited data

How the results depend on the processing

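Of 20 alternatives, 12 left the result within the limits set for a change. These limits were wide. They took in 30 linked genes with the nearest gene only and 60 with a limit of 30 kb, instead of 45. The 45 linked genes became 26 with a limit of 1 kb from the 5′ end, 27 (31.4%, compared with 21.9% of all genes) with a score of at least 200, and 20 (23.3%, compared with 29.3%) when only TRBS beyond 1 kb of every protein-coding 5′ end were counted, an alternative chosen after seeing the data. With a limit of 30 kb there were 60 (69.8%, compared with 53.3%). The share was below that of all genes when only the nearest gene was counted (34.9%, compared with 36.1%) and beyond 1 kb of every start, and above it under the others. The cause was not tested. The 26 genes with a TRBS at the 5′ end became 14 (16.3%, compared with 9.22%) with a score of at least 200, and 22 to 30 otherwise. The median fold enrichment rose to 14.02 with this score, compared with 14.5 over all linked TRBS, because weaker TRBS are left out by construction. The share with a DR4 became 0% with at most 1 mismatch (all linked TRBS 3.16%), 24.6% with at most 3 (37.2%) and 15.9% over the whole TRBS (17%). The list gives no values for single libraries, so leaving out a replicate was not possible. No paired analysis was possible because the results come from 1 list without values for single libraries and from no test. Depth is unknown.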

Other observations

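Ribosomal protein genes have many processed pseudogenes, which are copies of their mRNAs. Of 294 pseudogenes named after these genes, 1 (0.34%) held a TRBS summit, compared with 23 of 9940 processed pseudogenes (0.231%). It was Rpl9-ps3 on chromosome 11, with a coverage of 18 and a fold enrichment of 7.07. A value at such a near-identical copy is uncertain, since its reads cannot always be told from those of the source gene.

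By chromosome, the counts of linked genes ran from none to all. All 8 ribosomal protein genes of chromosome 17, all 7 of chromosome 11 and all 5 of chromosome 4 were linked, the last 5 with a TRBS at the 5′ end. The share of all genes linked was 50.7% on chromosome 17, 47.6% on chromosome 11 and 48.3% on chromosome 4. None of the 4 on chromosome 3 and none of the 4 on chromosome X was linked, and the share of all genes linked was 45.9% on chromosome 3 and 19.8% on chromosome X. For 0 of 4 the Wilson interval reaches 49.0%. No test was made of this spread.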
